A study of Arundo donax with 12 samples.

Results

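The genes described here are 41 unigenes of giant reed (Arundo donax) that the study's annotation places under phytohormone action, looked up among the 126668 unigenes of its count table. A unigene is the longest transcript of a cluster of assembled transcripts and stands for a gene, since the transcriptome was assembled without a genome. The phytohormone sheet of the study lists 55 unigenes, and 14 of them were left out by rule, because they stand in the study's table of selected genes or were set aside by name. The remaining 41 comprise 3 unigenes of abscisic acid, 4 of auxin, 4 of cytokinin, 5 of ethylene, 2 of gibberellin, 4 of jasmonic acid, 1 of salicylic acid, 1 of strigolactone and 17 of signalling peptides, of which 13 encode peptide precursors and 4 encode receptors. The best database hit of all 41 was in a grass.

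Plant hormones act in small amounts on growth, development and stress responses, and each has a chain of enzymes that make or inactivate it, carriers that move it, receptors that perceive it, and repressors that are removed or regulators that are induced when it is perceived. For auxin, jasmonic acid, gibberellin, strigolactone and ethylene, perception acts through the ubiquitin-dependent turnover of a regulator of transcription. Signalling peptides are cut from longer precursor proteins, leave the cell, and are bound by receptor kinases or receptor-like proteins of neighbouring or distant cells, and several families are known for their part in root branching, meristem size and nutrient signalling.

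The plants were of the G10 ecotype, grown from single stem nodes in pots of clay soil kept in the open air for about 3 months. The Cd plants received cadmium nitrate at 4 mg/kg and the CK plants ammonium nitrate in its place, so that both received nitrate and the accompanying ions differed. Roots (R) and leaves (L) were sampled under both treatments, which gave the groups Cd_R, CK_R, Cd_L and CK_L with 3 biological replicates each. The study describes 3 experimental units per treatment, so that roots and leaves of a treatment came from the same pots. The sample titles do not say which libraries share a pot, and the main tests used no block. Levels are expected counts scaled to CPM (counts per 1000000 counts, with TMM normalization), which are not corrected for transcript length, so that levels are compared between libraries and not between unigenes.

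Library totals ranged from 22157170 to 26033492 counts, and 1 CPM stood for a mean of 23.97 counts. The libraries Cd_R replicate 1 and CK_R replicate 3 stood apart from the other root libraries, with 105252 and 100357 unigenes detected against 81451 to 87756 in the other 4. The summed level of 46 unigenes of the study's tables whose best hit is a land plant other than a grass was 140 CPM in Cd_R replicate 1 against 17.6 and 18.7 CPM in the other Cd_R libraries, and 64.0 CPM in CK_R replicate 3 against 10.3 and 11.2 CPM in the other CK_R libraries. In leaf that sum was 2.99 to 3.31 CPM in Cd_L and 2.47 to 4.99 CPM in CK_L. For 21 unigenes with best hits outside the land plants, the sum was 35.7 CPM in Cd_R replicate 1 against 9.31 and 9.78 CPM in the other Cd_R libraries. There CK_R replicate 3 did not stand apart, with 12.8 CPM against 4.32 and 12.2 CPM in the other CK_R libraries. The 4 unigenes of the tables with a photosynthesis or chloroplast annotation summed to 8.96 to 19.3 CPM in Cd_R and 7.74 to 11.3 CPM in CK_R, against 89.2 to 215 CPM in Cd_L and 91.2 to 150 CPM in CK_L, and 3 of the 4 were higher in leaf. No defining marker of root was annotated in the tables, so that the root label was not checked.

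The members were put on the sheet because the study called them different between Cd_R and Cd_L and not between CK_R and CK_L. Every comparison of root with leaf below is therefore a description of what the choice used. A choice that rests on Cd_R libraries also favours unigenes that differ between Cd_R and CK_R, so that the comparisons of treatments are not independent of it either. In bulk tissue, fewer cells of a type and less RNA per cell cannot be told apart.

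No member passed the test for cadmium in either organ. Among the members tested in root, the 4 precursors of CEP peptides had the largest fitted differences in favour of Cd_R. These precursors passed the filter on low counts mainly through their counts in Cd_R. A type-A response regulator of cytokinin and an ACC oxidase of ethylene synthesis were higher in every Cd_R library than in any CK_R library. An acyl-CoA thioesterase of jasmonic acid synthesis was lower in every Cd_R library than in any CK_R library on the TMM scale, but not when counts were scaled by library totals. In leaf, no member had Cd_L libraries that all lay on the same side of the CK_L libraries. No count was found in any of the 6 leaf libraries for 11 of the 13 peptide precursors.

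**Figure D1:**
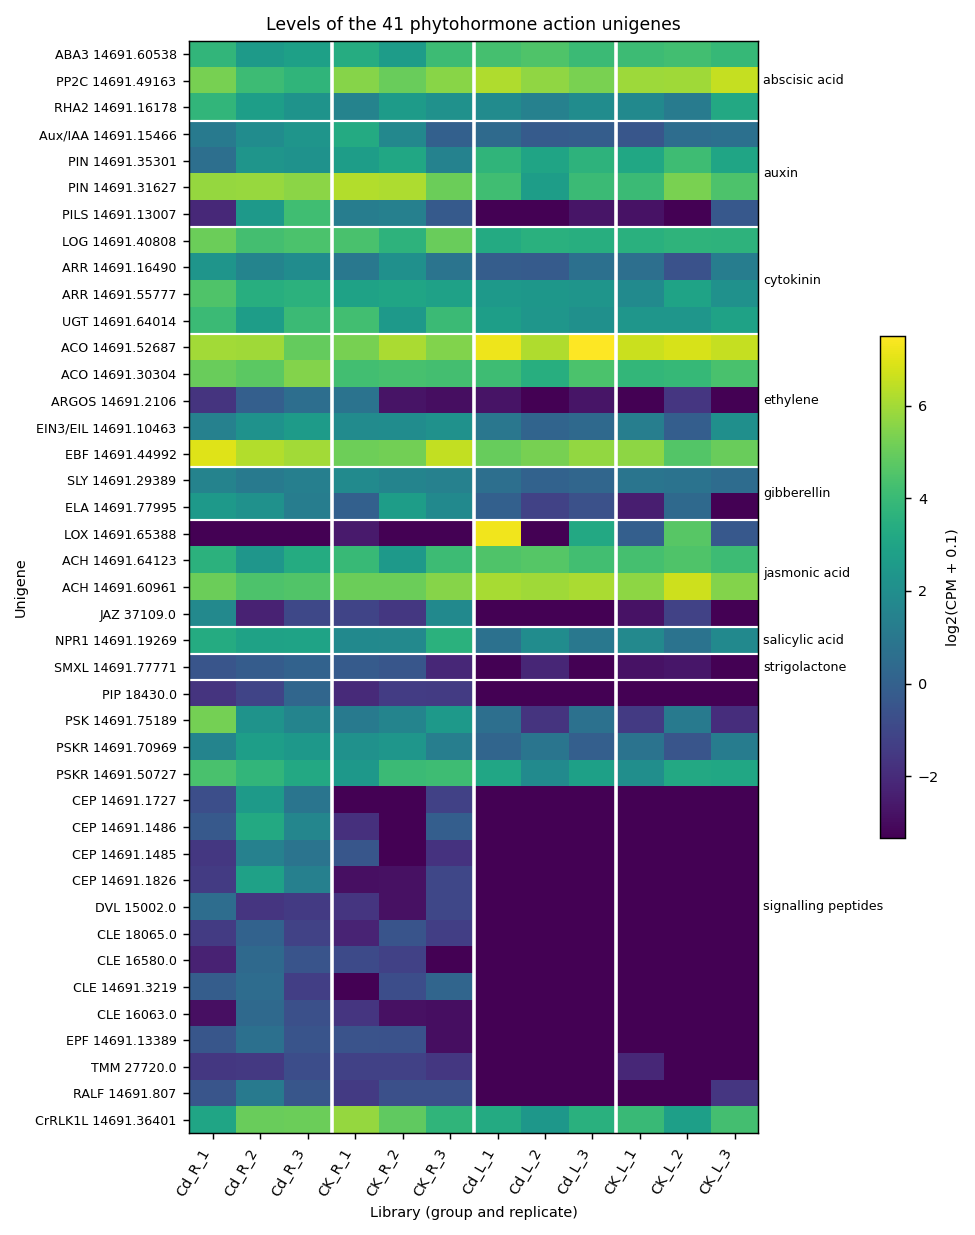
Levels of the 41 unigenes (rows, grouped by hormone) in the 12 libraries (columns), as log2(CPM + 0.1) on a colour scale. The 11 peptide precursors without a count in leaf form the dark block at the lower right, and CEP precursors are brightest in Cd_R replicate 2.

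In Cd_R vs CK_R, 35 of the 41 members passed the filter on low counts and 0 were DEGs (adjusted p of at most 0.05 and absolute log2 fold change of at least 1, edgeR). Over all unigenes, 0 of the 55317 tested were DEGs (0.0%). The lowest adjusted p of a member was 0.999 in edgeR and 0.133 in DESeq2, which called 0 members and 185 unigenes in all. An unadjusted p under 0.05 was reached by 5 members, 14.3% of the 35 tested, and by 4.62% of all unigenes tested. Of these 5, 3 were CEP precursors that passed the filter mainly through their counts in Cd_R. The Cd_R and CK_R libraries did not overlap in 6 members, 14.6% of the 41 and all among the 35 tested, and in 9.78% of all unigenes tested. With library totals in place of TMM, 5 members did not overlap (share over all unigenes not taken). Leaving out a library moved the number of members with a low unadjusted p to 9 without Cd_R replicate 1 (5.24% of all unigenes tested), 2 without Cd_R replicate 2 (1.97%), 2 without CK_R replicate 1 (3.78%) and 3 without CK_R replicate 2 (4.07%), with 0 DEGs each time. Means were higher in Cd_R for 29 of the 41 members and lower for 12. The median log2 fold change of the 35 members tested was 0.41, beside -0.02 over all unigenes tested.

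In Cd_L vs CK_L, 24 members were tested and 0 were DEGs in edgeR. Over all unigenes, 0 of the 48194 tested were DEGs (0.0%). No member had an unadjusted p under 0.05 in edgeR, against 4.25% of all unigenes tested. DESeq2 gave 1 such member and called 0, beside 2539 such unigenes and 73 called among 94329. Without CK_L replicate 2 there were 6 such members in edgeR, beside 8.69% of all unigenes tested, with a lowest adjusted p of 0.449. Groups that do not overlap were found in 0 members and in 9.33% of all unigenes tested. Means were higher in Cd_L for 10 members, lower for 20, and 0 in both leaf groups for 11. The median log2 fold change of the 24 members tested was -0.16, beside -0.01 over all unigenes tested.

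The interaction of tissue and treatment, which is the cadmium difference in root minus that in leaf, called 0 of 36 members tested in edgeR and 0 of 61242 unigenes (0.0%). It had an unadjusted p under 0.05 in 1 member and in 3.17% of all unigenes tested. DESeq2 gave 3 such members and called 0, beside 2451 such unigenes and 10 called among 120999. For the members without a count in leaf the interaction has no usable estimate. Of the 14 left-out unigenes of the sheet, 12 were tested for cadmium in root and 6 in leaf, with 0 DEGs in edgeR and an unadjusted p under 0.05 for 3 in root and 0 in leaf.

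**Figure D2:**
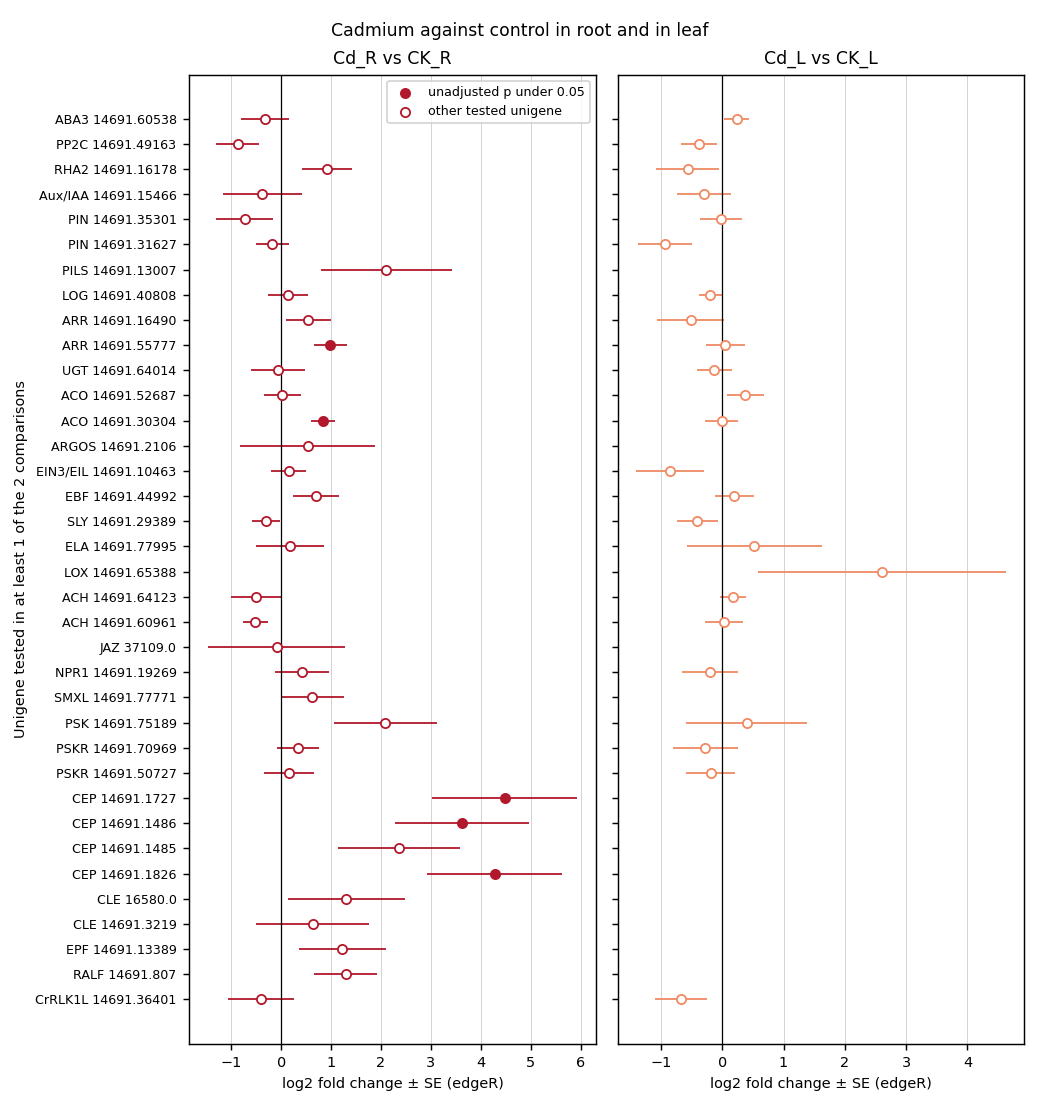
Log2 fold change of cadmium over control (x axis) with its edgeR SE (bars) for each member tested, in root on the left and in leaf on the right; filled points have an unadjusted p under 0.05. The 5 filled points are all in root and all above 0, and 3 of them are CEP precursors with SE above 1.

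Between organs, 26 of the 28 members tested in Cd_R vs Cd_L were DEGs in edgeR, 21 higher in root (23.0% of all unigenes tested) and 5 lower in root (17.9%), which the choice of members fixes. In CK_R vs CK_L, 25 members were tested, of which 0 were called higher in root (22.3% of all) and 1 was called lower in root (16.8%). With library totals in place of TMM, which moved the median of all unigenes towards root, members called were 22 higher and 0 lower in Cd_R vs Cd_L, and 12 higher and 1 lower in CK_R vs CK_L. The calls over all unigenes in Cd_R vs Cd_L were 12525 higher and 9718 lower in root with TMM, and 18396 higher and 6700 lower with library totals. In CK_R vs CK_L they were 12060 higher and 9112 lower with TMM, and 16401 higher and 6444 lower with library totals. Without CK_R replicate 3, 8 of the 27 members tested were called in CK_R vs CK_L (29.6%), beside 39.2% of all unigenes tested. Means were higher in root than in leaf under both treatments for 33 of the 41 members and lower under both for 7. For 24 of the 26 members with counts in all 4 groups, the ratio of the organ means was farther from 1 under cadmium, again as the choice of members would give.

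**Figure D3:**
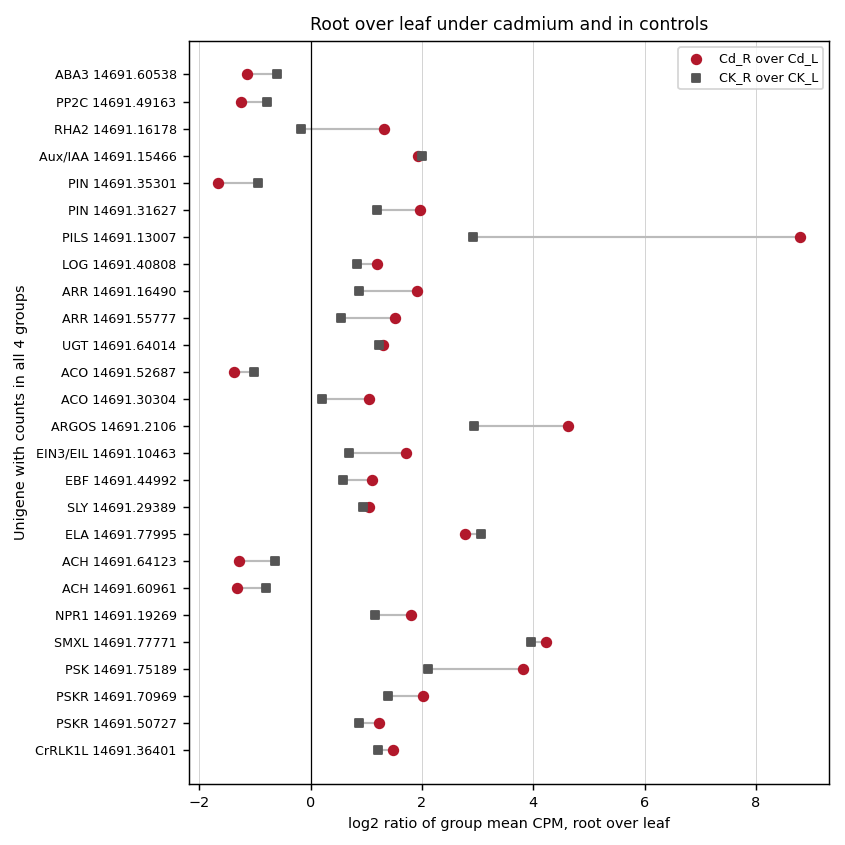
Log2 ratio of mean CPM in root over leaf (x axis) under cadmium (circles) and in controls (squares) for the 26 members with counts in all 4 groups. Only RHA2 lies on opposite sides of 0 in the 2 treatments, and the ratios of PILS, ARGOS and SMXL rest on 1 to 4 counts in a leaf group.

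Abscisic acid was represented by an enzyme, a phosphatase and a ubiquitin ligase. ABA3 (Cluster-14691.60538), which in Arabidopsis activates the oxidase of the final step of abscisic acid synthesis, had 13.9, 5.77 and 7.02 CPM in Cd_R and 10.2, 6.24 and 16.9 CPM in CK_R, in the order of replicates 1, 2 and 3, which is kept throughout. Its leaf values were 19.8, 22.5 and 16.6 CPM in Cd_L and 16.97, 18.4 and 15.2 CPM in CK_L, above the root values but for CK_R replicate 3. The highest root values were those of the 2 libraries that stand apart, and each made up more than 50% of the summed CPM of its group (Cd_R vs CK_R, edgeR log2 fold change -0.33, SE 0.48, unadjusted p = 0.511). Without CK_R replicate 3 that difference turned to 0.11.

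The regulatory phosphatase of the abscisic acid receptor complex (Cluster-14691.49163), which holds the signalling kinases off until the receptor binds it, had 38.3, 16.97 and 13.4 CPM in Cd_R and 45.6, 32.1 and 47.2 CPM in CK_R. Cd_R replicates 2 and 3 lay below all CK_R libraries and replicate 1 lay within them (edgeR log2 fold change -0.87, SE 0.43, unadjusted p = 0.0823). Without Cd_R replicate 1, the groups did not overlap and the test gave a difference of -1.46 in log2 (unadjusted p = 0.00252), with an adjusted p of 0.901. The log2 fold change of the phosphatase ran between -1.46 and -0.60 among the alternatives. In leaf it had 72.8, 51.2 and 39.7 CPM in Cd_L and 60.01, 61.9 and 92.8 CPM in CK_L, with overlapping groups. Root lay below leaf in both treatments, with a difference of -1.24 in log2 (SE 0.44, adjusted p = 0.0523) in Cd_R vs Cd_L and a difference of -0.75 in log2 (SE 0.29, adjusted p = 0.0706) in CK_R vs CK_L. Cd_R vs Cd_L passed the test without Cd_R replicate 1 (-1.79 in log2, adjusted p = 0.00286). RHA2 (Cluster-14691.16178), a ubiquitin ligase that favours abscisic acid signalling in Arabidopsis, had 13.6, 6.63 and 4.59 CPM in Cd_R and 2.72, 6.04 and 4.28 CPM in CK_R, and 3.63, 2.61 and 3.74 CPM in Cd_L and 3.38, 2.14 and 9.23 CPM in CK_L. Its Cd_R mean was carried by replicate 1, with 54.8% of the summed CPM of the group (edgeR log2 fold change 0.92, SE 0.49, unadjusted p = 0.108).

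Among the auxin unigenes were 1 repressor and 3 carriers. The Aux/IAA repressor (Cluster-14691.15466), which is degraded when auxin is perceived, had 2.08, 3.73 and 4.85 CPM in Cd_R and 9.79, 3.16 and 0.897 CPM in CK_R, a range within CK_R that took in all Cd_R values (edgeR log2 fold change -0.38, SE 0.79, unadjusted p = 0.646). CK_R replicate 1 held 70.7% of the summed CPM of its group, and without it the log2 fold change was 0.79. Leaf means were lower, with 1.23, 0.757 and 0.802 CPM in Cd_L and 0.645, 1.35 and 1.47 CPM in CK_L.

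PIN proteins carry auxin out of the cell in a set direction. The PIN unigene Cluster-14691.31627 had 55.2, 56.4 and 48.9 CPM in Cd_R and 76.6, 70.4 and 33.4 CPM in CK_R. It had 18.2, 6.47 and 16.6 CPM in Cd_L and 16.5, 40.2 and 22.1 CPM in CK_L, so that all Cd_R libraries lay above all Cd_L libraries while CK_R replicate 3 lay below CK_L replicate 2. The organ comparison gave a difference of 1.97 in log2 (SE 0.38, adjusted p = 0.00533) in Cd_R vs Cd_L and a difference of 1.24 in log2 (SE 0.44, adjusted p = 0.0542) in CK_R vs CK_L. CK_R vs CK_L passed the test without CK_L replicate 2 (1.63 in log2, adjusted p = 0.03097) and without CK_R replicate 3 (1.55 in log2, adjusted p = 0.0188). The other PIN unigene (Cluster-14691.35301) was lower in root, with means of 3.57 ± 1.83 CPM in Cd_R, 5.89 ± 3.01 CPM in CK_R, 11.3 ± 3.001 CPM in Cd_L and 11.4 ± 5.27 CPM in CK_L (SD, n = 3 each). The 2 PIN unigenes thus had opposite organ preference in these means.

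PILS (Cluster-14691.13007), a carrier of the endoplasmic reticulum that limits the auxin reaching the nucleus in Arabidopsis, spread widely among Cd_R libraries, with 0.136, 5.45 and 18.2 CPM in Cd_R and 2.27, 2.48 and 0.731 CPM in CK_R. Cd_R replicate 1 lay below all CK_R libraries while replicates 2 and 3 lay above them, and the test gave a difference of 2.11 in log2 (SE 1.31, unadjusted p = 0.153) in edgeR. Without Cd_R replicate 1 the test gave a difference of 2.70 in log2 (unadjusted p = 0.00749), with an adjusted p of 0.931. Cd_R replicate 3 held 76.5% of the summed CPM of its group, and the log2 fold change was as low as 0.605 among the alternatives. In leaf, PILS had 1 count in Cd_L and 13 counts in CK_L, of which nearly all were in CK_L replicate 3. The ratio of its counts in Cd_R over Cd_L was 487, with an exact 95% interval of 87.1 to 19265 that covers counting error only. The ratio was 173 without Cd_R replicate 3 and at least 115 without Cd_L replicate 3, which held that count. Its interaction was among the 3 lowest unadjusted p-values of the members (edgeR log2 fold change 5.61, SE 2.64, unadjusted p = 0.0563).

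For cytokinin, the type-A response regulator ARR Cluster-14691.55777, which is induced by cytokinin and damps its response, had 22.4, 10.7 and 12.2 CPM in Cd_R and 7.34, 8.15 and 7.27 CPM in CK_R. Every Cd_R library lay above every CK_R library, and the spread of CK_R was small beside that of Cd_R (edgeR log2 fold change 0.98, SE 0.33, unadjusted p = 0.0210, adjusted p = 0.999). The unadjusted p was above 0.05 without Cd_R replicate 1 (log2 fold change 0.59, unadjusted p = 0.0532), without CK_R replicate 1 (log2 fold change 0.95, unadjusted p = 0.0612) and without CK_R replicate 3 (log2 fold change 0.97, unadjusted p = 0.0517). In leaf it had 5.71, 5.22 and 4.93 CPM in Cd_L and 3.53, 7.70 and 4.31 CPM in CK_L, with Cd_L inside the range of CK_L. The other ARR unigene (Cluster-14691.16490) had 4.95, 2.83 and 3.71 CPM in Cd_R and 1.94, 4.25 and 1.68 CPM in CK_R, and 0.7995, 0.757 and 1.496 CPM in Cd_L and 1.46, 0.562 and 2.31 CPM in CK_L. CK_R replicate 2 of this unigene lay above 2 of the 3 Cd_R libraries and held 54.1% of its group's summed CPM (edgeR log2 fold change 0.54, SE 0.45, unadjusted p = 0.271).

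The cytokinin phosphoribohydrolase (Cluster-14691.40808), which frees active cytokinin from its ribotide, had 33.5, 18.9 and 21.6 CPM in Cd_R and 20.9, 12.8 and 32.7 CPM in CK_R. The highest root values were again those of Cd_R replicate 1 and CK_R replicate 3. Leaf values were closely grouped, at 9.72, 11.7 and 10.96 CPM in Cd_L and 11.6, 13.04 and 12.7 CPM in CK_L, and the organ comparison gave a difference of 1.21 in log2 (SE 0.26, adjusted p = 0.00782) in Cd_R vs Cd_L and a difference of 0.86 in log2 (SE 0.35, adjusted p = 0.0846) in CK_R vs CK_L. Cd_R vs Cd_L fell short of the limit on the fold change without Cd_R replicate 1 (0.96 in log2, adjusted p = 0.00664), and CK_R vs CK_L passed without CK_R replicate 2 (1.13 in log2, adjusted p = 0.0242). The glycosyl transferase of cytokinin inactivation (Cluster-14691.64014) had means of 13.1 ± 5.77 CPM in Cd_R, 13.6 ± 6.93 CPM in CK_R, 5.28 ± 1.24 CPM in Cd_L and 5.82 ± 1.44 CPM in CK_L (SD, n = 3 each), and the treatment means differed by less than the SD in both organs.

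Ethylene was represented from synthesis to signal. ACC oxidase makes ethylene in the final step of its synthesis, and the unigene Cluster-14691.30304 had 31.9, 27.01 and 44.1 CPM in Cd_R and 18.3, 19.9 and 19.1 CPM in CK_R. All Cd_R libraries were above all CK_R libraries, which lay close together (edgeR log2 fold change 0.83, SE 0.24, unadjusted p = 0.0105, adjusted p = 0.999). It was the member with the lowest unadjusted p in root, and with each of the 6 libraries left out in turn its unadjusted p stayed under 0.05 and its log2 fold change ran between 0.61 and 0.99. Its leaf values were 17.6, 10.8 and 21.2 CPM in Cd_L and 14.2, 14.8 and 20.8 CPM in CK_L, with overlapping groups. The interaction of this unigene gave a difference of 0.85 in log2 (SE 0.39, unadjusted p = 0.0515) in edgeR.

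The other ACC oxidase (Cluster-14691.52687) had the opposite organ preference, with 62.6, 62.1 and 30.3 CPM in Cd_R and 38.5, 69.5 and 43.6 CPM in CK_R against 149, 74.2 and 179.6 CPM in Cd_L and 98.7, 116 and 93.9 CPM in CK_L. Root lay below leaf in every pair of libraries of a treatment, with a difference of -1.36 in log2 (SE 0.41, adjusted p = 0.0314) in Cd_R vs Cd_L and a difference of -0.98 in log2 (SE 0.31, adjusted p = 0.0359) in CK_R vs CK_L, the control difference falling short of the limit on the fold change. The call in Cd_R vs Cd_L was lost in 7 of 14 alternatives, with library totals (-0.77 in log2, adjusted p = 0.143), with no low-count filter, with the replicate block, and without Cd_L replicate 1, Cd_L replicate 3, Cd_R replicate 2 or Cd_R replicate 3 (adjusted p of 0.0529 to 0.0977 without a library). Without CK_R replicate 2 the control difference passed (-1.29 in log2, adjusted p = 0.0142). Its root means were close together (edgeR log2 fold change 0.02, SE 0.37, unadjusted p = 0.962).

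EBF (Cluster-14691.44992), the adaptor that marks the transcription factor EIN3 for degradation, had 124, 74.8 and 64.2 CPM in Cd_R and 34.5, 36.5 and 88.9 CPM in CK_R. Replicates 1 and 2 of CK_R lay below all Cd_R libraries and CK_R replicate 3 lay among them, with 55.6% of the summed CPM of its group (edgeR log2 fold change 0.70, SE 0.46, unadjusted p = 0.174). Without CK_R replicate 3 the test gave a difference of 1.31 in log2 (unadjusted p = 0.0118), with an adjusted p of 0.721. Among the alternatives this was the highest value, and the lowest was 0.37. In leaf EBF had 31.8, 38.3 and 53.02 CPM in Cd_L and 50.3, 24.04 and 32.6 CPM in CK_L. EIN3/EIL (Cluster-14691.10463), the transcription factor itself, had means of 4.38 ± 1.73 CPM in Cd_R, 3.91 ± 0.409 CPM in CK_R, 1.34 ± 0.444 CPM in Cd_L and 2.42 ± 1.59 CPM in CK_L (SD, n = 3 each). ARGOS (Cluster-14691.2106), which lowers ethylene sensitivity in Arabidopsis and maize, had means of 0.828 ± 0.608 CPM in Cd_R, 0.571 ± 0.919 CPM in CK_R, 0.0336 ± 0.0292 CPM in Cd_L and 0.0749 ± 0.1298 CPM in CK_L. Most of its CK_R level came from replicate 1, and leaf held 2 counts in Cd_L and 4 in CK_L.

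The gibberellin unigenes were an adaptor and an enzyme. SLY (Cluster-14691.29389), the F-box protein that directs the DELLA repressors to degradation, had means of 2.44 ± 0.311 CPM in Cd_R, 2.99 ± 0.490 CPM in CK_R, 1.17 ± 0.259 CPM in Cd_L and 1.55 ± 0.218 CPM in CK_L (SD, n = 3 each), and root lay above leaf in every library of both treatments. ELA (Cluster-14691.77995), a cytochrome P450 that inactivates gibberellin in Arabidopsis, had 5.52, 4.29 and 2.28 CPM in Cd_R and 0.907, 6.32 and 3.39 CPM in CK_R. In leaf it had 0.897, 0.337 and 0.535 CPM in Cd_L and 0.0857, 1.18 and 0 CPM in CK_L, so that the control libraries spread more widely than those under cadmium in both organs. The organ comparison of ELA gave a difference of 2.78 in log2 (SE 0.50, adjusted p = 0.00403) in Cd_R vs Cd_L and a difference of 3.15 in log2 (SE 1.22, adjusted p = 0.0748) in CK_R vs CK_L, which passed without CK_L replicate 2 (6.06 in log2, adjusted p = 0.0152). For cadmium in root the test gave a difference of 0.17 in log2 (SE 0.69, unadjusted p = 0.808) in edgeR, and the sign turned without CK_R replicate 1 (-0.29) and without Cd_R replicate 1 (-0.11).

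Jasmonic acid was represented by 3 enzymes and a repressor. The 13-lipoxygenase (Cluster-14691.65388), which opens jasmonic acid synthesis by oxidising linolenic acid, had 154, 0 and 9.09 CPM in Cd_L and 0.857, 25.7 and 0.6798 CPM in CK_L. In root it had 0 counts in Cd_R and 2 counts in CK_R. Its leaf level thus ran between nothing and its highest value inside the Cd_L group, and no order of treatments can be read from it (edgeR log2 fold change 2.60, SE 2.03, unadjusted p = 0.236). It was the member called in CK_R vs CK_L in edgeR, with a difference of -8.21 in log2 (SE 1.99, adjusted p = 0.01299). That call was lost without CK_R replicate 1, whose 2 counts were those of the group (adjusted p = 0.0502), and with all 12 libraries in one fit (adjusted p = 0.0508), and in DESeq2 its p was NA. It was at least 1515-fold lower in Cd_R than in Cd_L, taking a floor of 3 counts over the Cd_R group, and the ratio of counts in CK_L over CK_R was 345 (exact 95% interval 94.9 to 2853); both cover counting error only. Single leaf libraries set both values: the bound was 112-fold without Cd_L replicate 1, and the ratio was 32.3 without CK_L replicate 2.

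The acyl-CoA thioesterase Cluster-14691.60961, of a class held to release jasmonic acid from its coenzyme A ester in the peroxisome, had 33.1, 22.3 and 23.7 CPM in Cd_R and 33.3, 33.7 and 45.3 CPM in CK_R. All Cd_R libraries lay below all CK_R libraries, though replicate 1 of Cd_R and of CK_R differed by very little (edgeR log2 fold change -0.52, SE 0.25, unadjusted p = 0.0791, adjusted p = 0.999). Scaled by library totals in place of TMM, Cd_R replicate 1 lay above CK_R replicates 1 and 2, so that the groups overlapped. Leaf values were 66.5, 62.3 and 69.4 CPM in Cd_L and 49.95, 101 and 45.03 CPM in CK_L, and root lay below leaf with a difference of -1.31 in log2 (SE 0.21, adjusted p = 0.00259) in Cd_R vs Cd_L and a difference of -0.76 in log2 (SE 0.35, adjusted p = 0.123) in CK_R vs CK_L. The other thioesterase (Cluster-14691.64123) had means of 9.07 ± 3.699 CPM in Cd_R, 12.7 ± 6.33 CPM in CK_R, 22.1 ± 3.44 CPM in Cd_L and 19.8 ± 2.94 CPM in CK_L (SD, n = 3 each), again with the lower root mean in Cd_R. The JAZ repressor (Cluster-37109.0), which is degraded on perception of jasmonic acid, had 3.31, 0.107 and 0.411 CPM in Cd_R and 0.363, 0.2401 and 3.42 CPM in CK_R. It was high only in the 2 root libraries that stand apart, at 86.4% and 85.02% of the summed CPM of their groups, and in leaf it had 0 counts in Cd_L and 7 in CK_L. The fitted difference in root was near 0 and changed sign with the library left out and with the scaling (edgeR log2 fold change -0.09, SE 1.38, unadjusted p = 0.948).

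Salicylic acid and strigolactone had 1 unigene each. NPR1 (Cluster-14691.19269), a receptor of salicylic acid and coactivator of defence genes, had 10.1, 7.49 and 7.58 CPM in Cd_R and 3.41, 3.32 and 11.9 CPM in CK_R. CK_R replicates 1 and 2 lay below all Cd_R libraries and CK_R replicate 3 lay above them (edgeR log2 fold change 0.41, SE 0.54, unadjusted p = 0.477). Without CK_R replicate 3 the test gave a difference of 1.32 in log2 (unadjusted p = 0.00382), with an adjusted p of 0.721. That was the highest value among the alternatives, and the lowest was 0.11. In leaf NPR1 had 1.56, 3.702 and 1.93 CPM in Cd_L and 3.34, 1.63 and 3.399 CPM in CK_L, and the organ comparison gave a difference of 1.81 in log2 (SE 0.37, adjusted p = 0.00655) in Cd_R vs Cd_L and a difference of 1.17 in log2 (SE 0.59, adjusted p = 0.153) in CK_R vs CK_L. SMXL (Cluster-14691.77771), of a family of repressors that strigolactone or a related signal removes, had 0.613, 0.788 and 0.971 CPM in Cd_R and 0.761, 0.648 and 0.133 CPM in CK_R. Leaf held 3 counts in Cd_L and 2 in CK_L, and the ratios of counts were 16.7 in Cd_R over Cd_L (exact 95% interval 5.46 to 82.9) and 14.6 in CK_R over CK_L (exact 95% interval 3.79 to 124). Without Cd_L replicate 2, which held all of the Cd_L counts, Cd_R was at least 10.4-fold higher.

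The 4 CEP precursors had the largest fitted differences with cadmium among the members tested in root, and spread widely among Cd_R libraries. Their CK_R counts alone would not have met the filter on low counts, which they passed mainly through Cd_R. Their rank among the members is thus a description. CEP peptides, known from Arabidopsis and Medicago, are made in roots, act on lateral root growth, and report low nitrogen to the shoot. The precursor Cluster-14691.1727 had 0.511, 5.91 and 1.75 CPM in Cd_R and 0, 0 and 0.332 CPM in CK_R. The precursor Cluster-14691.1826 had 0.273, 7.09 and 2.501 CPM in Cd_R and 0.0363, 0.04002 and 0.399 CPM in CK_R. For Cluster-14691.1486 the values were 0.716, 9.31 and 2.99 CPM in Cd_R and 0.181, 0 and 0.8304 CPM in CK_R. All 3 followed the same order among Cd_R libraries, with replicate 2 highest, replicate 3 next, and replicate 1 close to the highest CK_R library. The fourth precursor (Cluster-14691.1485) had 0.239, 2.58 and 1.68 CPM in Cd_R and 0.653, 0 and 0.199 CPM in CK_R, with Cd_R replicate 1 below CK_R replicate 1.

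Groups of libraries did not overlap in Cluster-14691.1727 alone among the 4 precursors. Cd_R replicate 2 held 72.3%, 71.9%, 71.6% and 57.3% of the summed CPM of the group for Cluster-14691.1727, Cluster-14691.1826, Cluster-14691.1486 and Cluster-14691.1485. The edgeR test gave a difference of 4.48 in log2 (SE 1.45, unadjusted p = 0.0187) for Cluster-14691.1727. It gave a difference of 4.27 in log2 (SE 1.36, unadjusted p = 0.0171) for Cluster-14691.1826. For Cluster-14691.1486 it gave a difference of 3.62 in log2 (SE 1.35, unadjusted p = 0.0325), and for Cluster-14691.1485 it gave a difference of 2.36 in log2 (SE 1.22, unadjusted p = 0.0951). The adjusted p was 0.999 for each of the 4 in edgeR and in DESeq2 it was 0.133 for Cluster-14691.1826 and 0.281 for Cluster-14691.1727.

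The low p-values of the CEP precursors depended on the libraries included. Without Cd_R replicate 2, none of the 4 had an unadjusted p under 0.05, with a difference of 3.25 in log2 (unadjusted p = 0.0906) for Cluster-14691.1727 and a difference of 3.06 in log2 (unadjusted p = 0.0708) for Cluster-14691.1826. The same was so without CK_R replicate 1 (log2 fold change 3.94, unadjusted p = 0.0587 for Cluster-14691.1727) and without CK_R replicate 2 (log2 fold change 3.96, unadjusted p = 0.0608). Without the 2 libraries that stand apart, Cd_R replicate 1 and CK_R replicate 3, the test gave a difference of 6.81 in log2 (unadjusted p = 3.63e-04) for Cluster-14691.1826, with an adjusted p of 0.610. The 4 precursors had no count in any of the 6 leaf libraries. Against a floor of 3 counts over the leaf group, they were at least 57.3-fold (Cluster-14691.1727), 68.9-fold (Cluster-14691.1826), 91.1-fold (Cluster-14691.1486) and 31.3-fold (Cluster-14691.1485) higher in Cd_R than in Cd_L. Without Cd_R replicate 2 the bounds were 23.4-fold, 28.3-fold, 38.2-fold and 19.7-fold in the same order. A bound on Cd_R over a leaf group without counts also fell 1.60 times without Cd_L replicate 2, since less depth was left under the same floor. In CK_R the 4 precursors had 10, 14, 30 and 24 counts in that order. The expected counts of the 4 were whole numbers in every library. Their sequences were not compared, and whether they stand for separate genes was not tested.

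**Figure D4:**
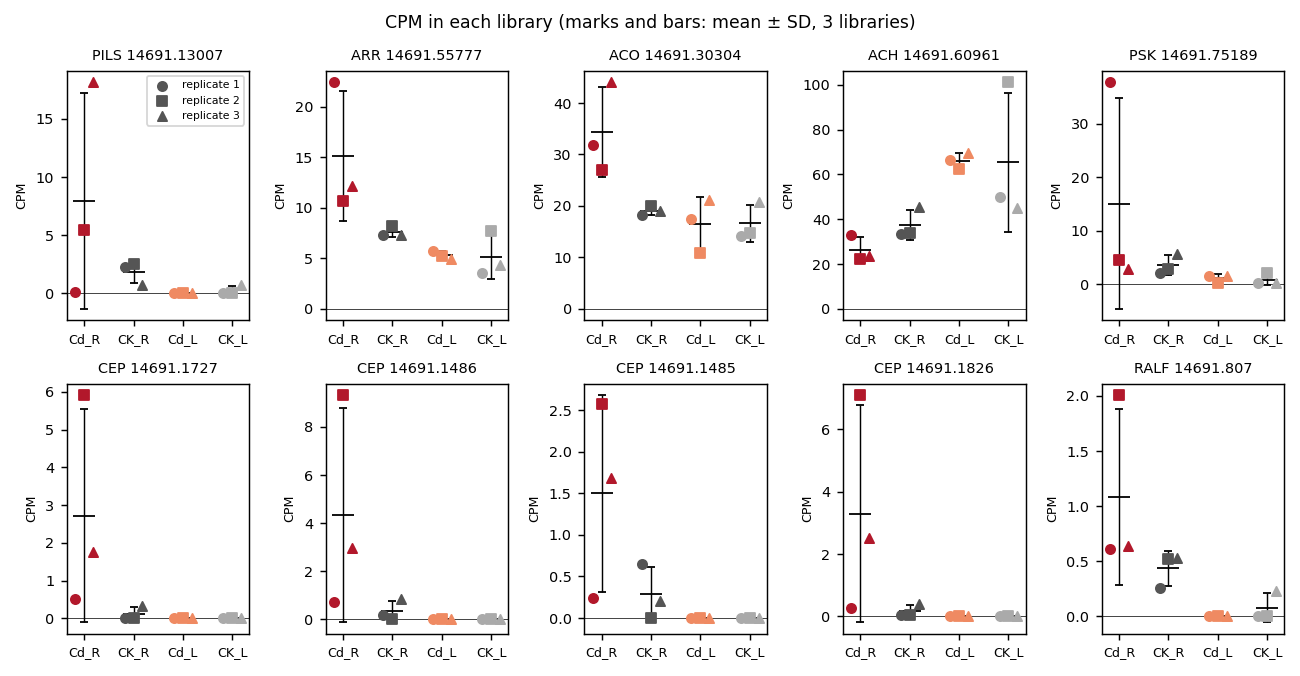
CPM (y axis, linear, each panel on its own scale) in the 3 libraries of Cd_R, CK_R, Cd_L and CK_L for 10 members, with the replicate number as marker and the mean ± SD in black. Cd_R replicate 2 (square) is highest in the CEP and RALF panels, replicate 1 (circle) in the PSK and ARR panels, and replicate 3 (triangle) in the PILS and ACO panels.

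Phytosulfokine is a sulfated peptide that promotes cell growth, and both its precursor and its receptor were present. The precursor PSK (Cluster-14691.75189) had 37.8, 4.59 and 2.81 CPM in Cd_R and 2.07, 2.801 and 5.65 CPM in CK_R. Cd_R replicate 1 alone held 83.6% of the summed CPM of its group, and the other Cd_R libraries lay within the range of CK_R (edgeR log2 fold change 2.09, SE 1.02, unadjusted p = 0.0823). Without that library the test gave a difference of 0.06 in log2 (unadjusted p = 0.911). In leaf PSK had 1.46, 0.2103 and 1.55 CPM in Cd_L and 0.257, 2.02 and 0.1699 CPM in CK_L. The receptor PSKR Cluster-14691.70969 had means of 4.91 ± 1.88 CPM in Cd_R, 3.88 ± 1.36 CPM in CK_R, 1.21 ± 0.458 CPM in Cd_L and 1.49 ± 0.805 CPM in CK_L (SD, n = 3 each). The receptor PSKR Cluster-14691.50727 had means of 14.6 ± 5.83 CPM in Cd_R, 13.02 ± 6.62 CPM in CK_R, 6.28 ± 2.47 CPM in Cd_L and 7.16 ± 2.798 CPM in CK_L. Neither receptor separated the treatments in root or in leaf.

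RALF peptides raise the pH outside the cell and are bound by receptor kinases of the CrRLK1L family. The RALF precursor (Cluster-14691.807) had 0.613, 2.01 and 0.635 CPM in Cd_R and 0.254, 0.5203 and 0.531 CPM in CK_R, with every Cd_R library above every CK_R library (edgeR log2 fold change 1.29, SE 0.63, unadjusted p = 0.0811). That separation rests on few counts, with 18, 56 and 17 in Cd_R and 7, 13 and 16 in CK_R. Cd_R replicate 2 held 61.7% of the summed CPM of its group, and the log2 fold change ran between 0.51 and 1.77 among the alternatives. In leaf the RALF precursor had 0 counts in Cd_L and 4 counts, all in CK_L replicate 3. It had the lowest unadjusted p of the members in the interaction (edgeR log2 fold change 5.18, SE 2.22, unadjusted p = 0.0441, adjusted p = 1.00), which rests on those few leaf counts. The CrRLK1L receptor (Cluster-14691.36401) had 8.11, 32.5 and 33.4 CPM in Cd_R and 55.2, 28.9 and 13.3 CPM in CK_R. Cd_R replicate 1 and CK_R replicate 3 were its lowest root libraries, and CK_R replicate 1 held 56.7% of the summed CPM of CK_R (edgeR log2 fold change -0.41, SE 0.66, unadjusted p = 0.561). In leaf it had 9.72, 5.22 and 11.4 CPM in Cd_L and 16.2, 6.74 and 18.98 CPM in CK_L, and root over leaf gave a difference of 1.50 in log2 (SE 0.56, adjusted p = 0.0612) in Cd_R vs Cd_L and a difference of 1.24 in log2 (SE 0.57, adjusted p = 0.122) in CK_R vs CK_L. Cd_R vs Cd_L passed without Cd_R replicate 1 (1.97 in log2, adjusted p = 0.00184) and CK_R vs CK_L without CK_R replicate 3 (1.63 in log2, adjusted p = 0.0344).

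CLE peptides, which set the size of meristems, had 4 precursors, all under 1 CPM in the mean of each group and without a count in leaf. The means were 0.525 ± 0.384 CPM in Cd_R and 0.336 ± 0.248 CPM in CK_R for Cluster-18065.0, and 0.627 ± 0.541 CPM in Cd_R and 0.252 ± 0.225 CPM in CK_R for Cluster-16580.0. They were 0.814 ± 0.513 CPM in Cd_R and 0.514 ± 0.532 CPM in CK_R for Cluster-14691.3219, and 0.5796 ± 0.576 CPM in Cd_R and 0.0969 ± 0.105 CPM in CK_R for Cluster-16063.0. All 4 had the higher mean in Cd_R and their highest Cd_R value in replicate 2, as the CEP precursors did, and all 4 pairs of groups overlapped. The counts over the 3 Cd_R libraries were 44, 52, 69 and 48 in that order.

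Low counts also marked the unigenes of EPF, PIP and DVL peptides. EPF (Cluster-14691.13389), of the family that sets the spacing of stomata and of other cells, had 0.647, 1.505 and 0.597 CPM in Cd_R and 0.5802, 0.5603 and 0.0332 CPM in CK_R, and the groups did not overlap (edgeR log2 fold change 1.22, SE 0.87, unadjusted p = 0.204). The distance between Cd_R replicate 3 and CK_R replicate 1 was a small part of the spread within either group. TMM (Cluster-27720.0), the receptor-like protein that binds EPF peptides, had means of 0.325 ± 0.139 CPM in Cd_R and 0.293 ± 0.0525 CPM in CK_R, with 0 counts in Cd_L and 3 in CK_L. PIP (Cluster-18430.0), a precursor of peptides that amplify immune responses in Arabidopsis, had means of 0.548 ± 0.469 CPM in Cd_R and 0.2303 ± 0.0742 CPM in CK_R. DVL (Cluster-15002.0), of a family of small proteins that alter organ shape when overproduced, had means of 0.613 ± 0.6498 CPM in Cd_R and 0.219 ± 0.179 CPM in CK_R. PIP, DVL and EPF had no count in leaf, which puts Cd_R at least 11.4-fold, 13.4-fold and 19.4-fold above Cd_L in that order. The bound of PIP was 5.93-fold without Cd_R replicate 3, and that of DVL was 5.04-fold without Cd_R replicate 1. PIP, DVL, TMM and the CLE precursors Cluster-18065.0 and Cluster-16063.0 failed the filter on low counts in Cd_R vs CK_R, as did the 13-lipoxygenase, which makes 6 members not tested there.

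The 2 root libraries that stand apart lay at one end of the order in many of the members, as they did in many of all unigenes tested in root. Whether the shares of members and of all unigenes differ was not tested. Cd_R replicate 1 and CK_R replicate 3 were both above the other 4 root libraries in 8 of the 41 members (19.5%) and 7 of the 35 tested in root (20.0%), beside 14.3% of the unigenes tested there. These 8 were ABA3, the cytokinin phosphoribohydrolase, EBF, JAZ, NPR1, PSK, DVL and the PSKR unigene Cluster-14691.50727. Both libraries were below the other 4 in 9 members (21.95%) and 7 of the 35 tested in root (20.0%), beside 16.7% of the unigenes tested. The 9 were Aux/IAA, the PIN unigene Cluster-14691.35301, PILS, SMXL, the PSKR unigene Cluster-14691.70969, the CLE precursors Cluster-16580.0 and Cluster-16063.0, TMM and CrRLK1L. The number of members that did not overlap between Cd_R and CK_R was 23 without these 2 libraries (56.1% of all 41), beside 36.9% of the unigenes tested in root, as groups of 2 overlap less often. The number with an unadjusted p under 0.05 was 9 of 37 tested without them in edgeR (24.3%), beside 7.07% of all unigenes tested, with 0 DEGs. The part of the unigenes with best hits outside the grasses in these orders was not tested.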

How the data were processed

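Poly-A RNA of the 12 leaf and root samples was sequenced by the authors, who assembled the reads with Trinity, reduced the transcripts with Corset and counted reads per unigene with RSEM. The deposited values are the expected counts of RSEM, neither normalized nor filtered, in which 88.6% of the values are whole numbers. No genome, coordinates or sequences were used here.

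The members were the unigenes of the phytohormone sheet, each taken once, without 14 unigenes. Members, lists and tests were chosen with earlier results of these data known. Expected counts were rounded and tested in R 4.3.3 with the quasi-likelihood test of edgeR 4.0.16 (TMM, filterByExpr) on the 6 libraries of each pair of groups, without a block, and on all 12 for the interaction. P-values were adjusted by Benjamini-Hochberg over all unigenes tested. The SE is the absolute log2 fold change divided by the square root of F. Scripts were tested on simulated data. Each member was to be named with its level. Values per library and statistics were given for members with an unadjusted p under 0.05 for cadmium, non-overlapping groups with a mean of at least 1 CPM, the 3 lowest interaction p-values, the highest mean CPM of a hormone, or more than 50% of a root group's CPM in 1 library. The 13-lipoxygenase, EPF and the values without single libraries were added after the values were seen.

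Alternatives were RLE size factors, library totals, no filter, a filter of 10 counts in 3 libraries, DESeq2 1.42.0 with and without independent filtering, one fit of all 12 libraries, a block of replicate numbers, the adjusted p alone, and each library left out. Leaving out Cd_R replicate 1 and CK_R replicate 3 together was chosen after seeing the data. Intervals and floors cover counting error only.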

Additional observations from a re-analysis of the deposited data

How the results depend on the processing

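The count of 0 DEGs among the members held in every alternative run for Cd_R vs CK_R, Cd_L vs CK_L and the interaction. Over all unigenes, DESeq2 with defaults called 185, 73 and 10 in that order. Members with an unadjusted p under 0.05 numbered 2 to 9 in Cd_R vs CK_R, 0 to 6 in Cd_L vs CK_L, 5 to 13 in CK_R vs CK_L and 0 to 6 in the interaction with a library left out (Cd_R replicate 1 and CK_R replicate 3 also together). The shares of all unigenes tested were 1.97 to 7.07%, 3.31 to 8.69%, 41.7 to 48.9% and 2.32 to 4.51% in that order. With libraries left out, members whose groups do not overlap numbered 6 to 23 in Cd_R vs CK_R, 2 to 5 in Cd_L vs CK_L and 17 to 24 in CK_R vs CK_L. A share over all unigenes was taken only for the 23, at 36.9%. Groups with fewer libraries overlap less often, so that the other numbers are not a result about the members. DEGs of CK_R vs CK_L numbered 1 to 8 among the members, beside 28.8 to 39.2% of all unigenes tested.

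Among other settings, no low-count filter gave 1 member with a low unadjusted p in Cd_L vs CK_L, 23 in CK_R vs CK_L and 2 in the interaction. Over all unigenes tested the numbers were 3645 of 94388, 35674 of 115498 and 2665 of 126614 in that order. DESeq2, with and without independent filtering, gave 1 in Cd_L vs CK_L and 3 in the interaction, and called 41 of the 41 in Cd_R vs Cd_L, by whose DESeq2 calls the sheet was drawn up. Over all unigenes it gave 2539 of 94329 in Cd_L vs CK_L and 2451 of 120999 in the interaction. In Cd_R vs Cd_L it called 25021 of 118252 unigenes, and 23608 without independent filtering. In CK_R vs CK_L the members called were 6 with DESeq2 defaults, 0 without independent filtering, 13 with library totals, 9 with all 12 libraries in one fit and 2 by the adjusted p alone. Unigenes called in all were 24674 of 114122, 23186 of 114122, 22845 of 54084, 25372 of 61242 and 22179 of 54084 in that order. Library totals also gave 3 members with a low unadjusted p in the interaction (1783 of 61242 unigenes) and 25 without overlap in CK_R vs CK_L (share over all unigenes not taken). The median log2 fold change over all unigenes moved with them from -0.02 to 0.14 in Cd_R vs CK_R, from -0.01 to 0.10 in Cd_L vs CK_L, from 0.05 to 0.59 in Cd_R vs Cd_L and from 0.05 to 0.55 in CK_R vs CK_L. The cause of these differences was not tested.

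Of 43 named log2 fold changes, 37 kept their direction in every alternative. In Cd_R vs CK_R, leaving out libraries moved ABA3 between -0.81 and 0.11, Aux/IAA between -0.87 and 0.79, ELA between -0.29 and 0.89, JAZ between -2.39 and 2.07 and CrRLK1L between -0.77 and 0.20, and library totals moved JAZ to 0.037. In Cd_L vs CK_L the 13-lipoxygenase ran between -1.03, without Cd_L replicate 1, and 6.12. Replicate numbers recur in all groups, but same-numbered libraries did not deviate together in every pair (r of -0.35 to 0.43 between Cd_R and CK_R, -0.39 to -0.11 between Cd_L and CK_L, -0.13 to 0.06 between Cd_R and Cd_L). Between CK_R and CK_L, r was 0.0828 to 0.197, above 0.1 in 2 of 3 pairs, and -0.17 to 0.09 for different numbers. With the replicate number as a block, 4 members were called in CK_R vs CK_L (21413 of 54084 unigenes) and 23 in Cd_R vs Cd_L (20709 of 54423). None was called in the comparisons for cadmium, and Aux/IAA turned to 0.12 in Cd_R vs CK_R.

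With 3 libraries a group, members near 1 CPM rest on about 23.97 counts a library. No CEP precursor passed the edgeR test for cadmium after adjustment over all unigenes tested, and none had an unadjusted p under 0.05 without Cd_R replicate 2.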
